A study of Mus musculus with 2 samples.

Results

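Hemoglobin-dominated cells of mouse bone marrow were examined, that is, cells in which transcripts of the alpha and beta globin genes (symbols starting with *Hba-* or *Hbb-*) took up 60% or more of the unique molecular identifiers (UMIs, the tags that count single RNA molecules). The cells were selected on that share alone, and they numbered 1664 of the 9933 cell barcodes with at least 200 genes. Of these, 1426 came from the 6271 cells of the WT library and 238 from the 3662 cells of the Cko library. The cells were taken to stand for late erythroblasts and reticulocytes, a name that rests on the hemoglobin share. In the WT, 1000 of the 1426 cells lay at 60 to 80% hemoglobin. There, genes of G2 and mitosis took up a larger share of the other RNA than in WT cells with less hemoglobin. Whether those cells are late erythroblasts was not tested. The other genes are described below as a share of the RNA that is not hemoglobin.

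The series asked how bone marrow cells (BMCs) change when site-1 protease (S1P, gene *Mbtps1*), which activates the SREBP and ATF6 transcription factors in the Golgi, is lost from the Osterix lineage. The WT mouse was S1P f/f, homozygous for a floxed exon of *Mbtps1* and without Cre. The Cko mouse was S1P f/f;Osx-Cre, in which the Osterix (*Sp7*) promoter drives a GFP::Cre fusion in osteoblast lineage cells. The paper proposes that this Cre is also active in blood-forming cells, and it reports loss of the floxed exon in sorted Cko neutrophils. Both mice were C57BL6/J, carried the floxed alleles and were 21 days old, and each genotype was 1 mouse and 1 library of fore- and hindlimb marrow on the 10x Genomics 3′ platform. Mice with Osx-Cre alone were not among these libraries. Red blood cells were lysed before capture, which removes mature red cells. *Sp7* had no UMI in the hemoglobin-dominated WT cells and was not listed in the Cko.

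A late erythroblast is the last nucleated stage of red cell production. It fills its cytoplasm with hemoglobin, condenses and expels its nucleus, and becomes a reticulocyte, which has no nucleus, transcribes no RNA and goes on to clear its mitochondria and ribosomes. Heme is made by a chain of enzymes that starts and ends in the mitochondrion, iron enters through the transferrin receptor, and a spectrin and ankyrin skeleton is built under the membrane. Globin RNA is long-lived and makes up most of the RNA at the end of this path.

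The kept cells held 56318434 UMIs in the WT and 34410445 in the Cko, with medians of 6977 and 7440 per cell. The files listed 7181 and 6735 genes, 6001 of them in both, and only genes with 4 or more UMIs in some cell, so that an unlisted gene cannot be read as 0. Hemoglobin-dominated cells had a median of 5545 UMIs and 680 genes in the WT, and of 7327 UMIs and 625 genes in the Cko. Leaving hemoglobin out, the medians were 1454 and 1528 UMIs and the sums 2148315 and 435975. The libraries shared 28 barcodes, of which 5 WT and 2 Cko cells were hemoglobin-dominated. Scrublet called 4 WT and 2 Cko hemoglobin-dominated cells as doublets, and these were kept. There was 1 library per genotype, so no difference between WT and Cko was tested. All intervals given are 95% intervals and cover counting error only, not the spread between mice, and genotype, mouse sex and preparation cannot be told apart. *Xist* was listed only in the Cko and the Y-linked *Ddx3y* and *Eif2s3y* only in the WT.

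Hemoglobin-dominated cells made up 22.7% of the WT cells (exact binomial interval 21.7 to 23.8%) and 6.50% of the Cko cells (5.72 to 7.35%). The WT share was 3.50-fold the Cko share (exact conditional interval 3.05 to 4.03). Cells with intermediate hemoglobin, at 20% to under 60% of the UMIs, were also a smaller share in the Cko, with 843 WT cells (13.4%) and 170 Cko cells (4.64%). Because hemoglobin chose the cells, its level in them is a description. The median hemoglobin share was 72.1% in the WT (quartiles 66.7 and 81.5%) and 77.2% in the Cko (68.3 and 81.9%), with maxima of 93.7 and 93.5%. The WT cells formed a peak of 357 cells at 65 to 70% hemoglobin and another of 243 cells at 80 to 85%, with 159 cells between 75 and 80%. The Cko cells were most frequent between 75 and 85%, with 56 and 51 cells in the 5-point steps there. The limit fell inside a continuous range, with 30 WT and 7 Cko cells at 60 to 61% and 37 WT and 12 Cko cells at 59 to 60%. *Bpgm* was at 5.20 and 5.47 UMIs per 10000 non-hemoglobin UMIs just inside and just outside the limit in the WT, and at 3.61 and 3.80 in the Cko. In the cells under 20% hemoglobin, the median hemoglobin share was 0.336% in the WT and 0.0821% in the Cko.

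RNA of marker genes of other lineages was present in the hemoglobin-dominated cells. The 15 neutrophil markers summed to 100 UMIs per 10000 non-hemoglobin UMIs in the WT and 130 in the Cko, against 744 and 1597 in the cells with under 20% hemoglobin. *S100a8*, the most abundant of them, was at 41.7 and 51.9. The B cell markers summed to 5.92 and 4.75, the monocyte and macrophage markers to 3.18 and 3.44, the megakaryocyte and platelet markers to 1.02 and 0.619, the stromal and endothelial markers to 0.470 and 0.138, and the T and NK cell markers to 0.186 and 0.184. *Cd3e* and *Cd3g* were at 0 in both libraries. A few markers were higher than in the cells with under 20% hemoglobin. *Lgmn*, of the monocyte and macrophage list, was at 0.740 against 0.126 in the WT and at 1.19 against 0.159 in the Cko. That list as a whole summed to more in the cells with under 20% hemoglobin, at 5.74 and 10.8. Whether all these UMIs came from other cells was not tested. Markers of other cell types reached 1% or more of the non-hemoglobin UMIs in 460 WT cells (32.3%) and 124 Cko cells (52.1%). Their part in the results below was not tested, except where a value without these cells is given.

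The hemoglobin itself came from 4 adult genes. *Hbb-bs* gave 45.5% of the globin UMIs in the WT and 48.8% in the Cko, *Hba-a1* 24.1 and 24.9%, *Hbb-bt* 14.9 and 13.3%, and *Hba-a2* the remaining part, with 15.4% in the WT. The embryonic gene *Hba-x* had 1 UMI in the WT cells and was not listed in the Cko. Alpha globin was 39.5% of the WT globin UMIs (39.49 to 39.57%) and 38.0% of those of the Cko (37.87 to 38.04%). The alpha genes lie on chromosome 11, *Hba-a1* at chr11:32283511-32284465 and *Hba-a2* at chr11:32296489-32297298 on the plus strand, and the beta genes on chromosome 7, *Hbb-bs* at chr7:103826534-103828096 and *Hbb-bt* at chr7:103812524-103813996 on the minus strand (GENCODE vM21, GRCm38). How far a 3′ library can tell each pair apart can be read from the sequences. The last 90 coding bases of each gene, stop codon included, are given as in the GENCODE transcripts, with the base that differs from its partner in capitals.
Hba-a1: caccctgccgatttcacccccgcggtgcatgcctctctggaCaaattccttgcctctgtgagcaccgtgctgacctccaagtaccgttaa
Hba-a2: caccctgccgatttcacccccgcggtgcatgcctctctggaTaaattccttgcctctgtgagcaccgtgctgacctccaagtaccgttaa
Hbb-bs: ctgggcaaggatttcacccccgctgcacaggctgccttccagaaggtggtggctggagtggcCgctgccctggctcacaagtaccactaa
Hbb-bt: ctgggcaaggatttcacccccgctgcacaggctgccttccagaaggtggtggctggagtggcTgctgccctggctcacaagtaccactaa

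The alpha coding sequences of 429 bases differ at 1 base (99.8% identity), and the 74 bases after the stop codon that both transcripts hold are the same, so the split of reads between *Hba-a1* and *Hba-a2* is uncertain. The beta coding sequences of 444 bases also differ at 1 base, but their 131 compared bases after the stop codon differ by 39 edits. The counted *Hba-a2* share was higher at higher hemoglobin, with 13.5, 15.4, 17.2 and 19.1% of the globin UMIs in WT cells at 60 to 70, 70 to 80, 80 to 90 and over 90% hemoglobin. In the Cko the same steps held 10.8, 13.3, 14.7 and 14.2%. In the intermediate cells it was 11.4% in the WT and 9.19% in the Cko. The *Hbb-bs* share was lower along these steps in the WT, at 47.3, 45.8, 43.6 and 42.0%, whereas in the Cko it was 49.1, 48.2, 48.7 and 50.9%. Thus the alpha share was 37.6% at 60 to 70% and 43.4% over 90% hemoglobin in the WT, and 37.1 and 36.8% in the Cko. The last Cko step holds 8 cells.

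**Figure D1:**
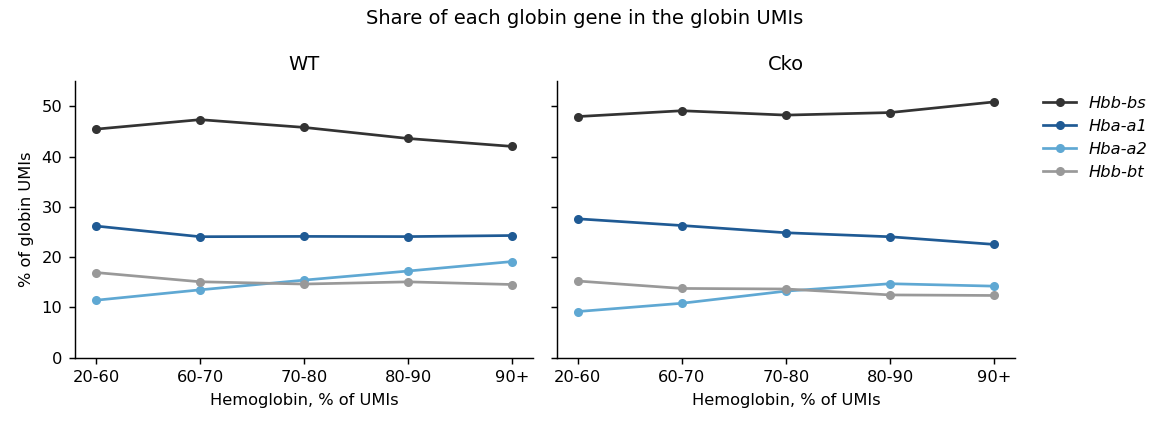
Share of each globin gene in the globin UMIs (%, vertical axis) in WT and Cko cells grouped by their hemoglobin share (% of UMIs, horizontal axis), with UMIs summed over the cells of a group. *Hba-a2* lies at 11.4% in the intermediate WT cells and at 19.1% in the WT cells over 90% hemoglobin.

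Levels of 4 markers that came with the label of late erythroid cells are given here. They are no independent check of the label, because they were chosen with earlier results of these data known. *Bpgm* encodes bisphosphoglycerate mutase, which makes the 2,3-bisphosphoglycerate that lowers the oxygen affinity of hemoglobin, *Xpo7* encodes a nuclear exporter that acts when the erythroblast nucleus condenses, *Slfn14* encodes a ribosome-associated endoribonuclease of reticulocytes, and *Tmcc2* encodes a transmembrane coiled-coil protein. All 4 were listed in both libraries. *Bpgm* stood at 26.7 UMIs per 10000 non-hemoglobin UMIs in the hemoglobin-dominated WT cells (exact Poisson interval 26.0 to 27.4), at 1.73 in the intermediate cells and at 0.253 in the cells with low hemoglobin. In the Cko the 3 levels were 28.6, 1.14 and 0.131. *Tmcc2* was at 18.7 against 1.46 in the intermediate cells of the WT and at 27.9 against 1.35 in the Cko. *Xpo7* was at 8.12 against 0.474 in the WT and at 10.1 against 0.227 in the Cko. *Slfn14* was at 3.98 against 0.360 in the WT and at 5.34 against 0.406 in the Cko. Every marker was thus at least 11.1-fold higher in hemoglobin-dominated than in intermediate cells of the same library, with *Xpo7* at 17.1-fold (14.7 to 20.1) in the WT and 44.3-fold (29.1 to 70.6) in the Cko. These folds pool all hemoglobin-dominated cells. In WT cells at 60 to 70% hemoglobin the 4 markers summed to 10.7, against 4.02 in the intermediate cells. In the Cko the sums were 20.3 and 3.13.

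The markers separated the cells further. *Bpgm* was higher at each step of hemoglobin, at 4.27, 21.1, 96.6 and 275 UMIs per 10000 in the WT and at 6.55, 28.8, 78.0 and 178 in the Cko. The other 3 peaked at 80 to 90% hemoglobin and were nearly gone over 90%. *Tmcc2* was at 77.5 and then 3.46 in the WT and at 67.9 and then 4.14 in the Cko. *Xpo7* was at 36.3 and then 1.98 in the WT, and at 22.3 and then 0 in the Cko, where the 8 cells allow a level of up to 6.21 (3 UMIs). At 80 to 90% *Slfn14* was at 12.4 (WT) and 8.75 (Cko), and it had no UMI over 90%, which allows up to 0.742 in the WT and 6.21 in the Cko. With each cell thinned to 500 non-hemoglobin UMIs, which left out 32 WT and 2 Cko cells, a *Bpgm* UMI was seen in 48.3% of the WT cells (45.6 to 50.9%, and 69.9% without thinning) and 61.4% of the Cko cells (54.9 to 67.7%, and 85.3%). In B-lineage cells thinned in the same way, which should lack the gene, the share was 0.692% of 1156 WT cells and 0.858% of 816 Cko cells, at median depths of 6788 and 7931 non-hemoglobin UMIs before thinning.

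**Figure D2:**
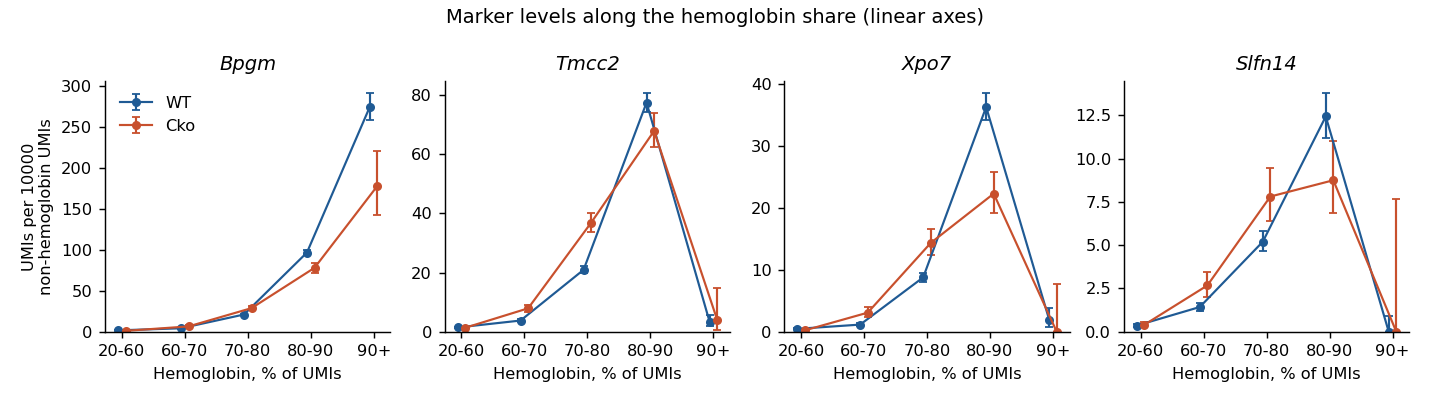
Level of each marker (UMIs per 10000 non-hemoglobin UMIs, linear vertical axes that differ between panels) in WT and Cko cells grouped by hemoglobin share (% of UMIs), with bars for the 95% Poisson interval. *Bpgm* is highest over 90% hemoglobin, where *Tmcc2*, *Xpo7* and *Slfn14* drop to 4.14 or less.

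Promoter sequences are shown for the markers *Bpgm*, *Tmcc2* and *Slfn14*, and the promoter set used held no window for *Xpo7*. The levels of the 3 genes shown were higher at each step up to 80 to 90% hemoglobin. Each is the RefSeq window (GRCm38.p6) of 300 bases, 250 before the annotated start and 50 after it. Capitals mark matches on either strand to a GATA motif (NGATAN with A or T as its first base and A or G as its last) or to a KLF motif (CCNCNCCC), the letters bound by the GATA1 and KLF1 families. *Bpgm* is at chr6:34476106-34476405 on the plus strand, *Tmcc2* at chr1:132391337-132391636 on the minus strand in 1 of its 3 windows, and *Slfn14* at chr11:83286677-83286976 on the minus strand.
Bpgm: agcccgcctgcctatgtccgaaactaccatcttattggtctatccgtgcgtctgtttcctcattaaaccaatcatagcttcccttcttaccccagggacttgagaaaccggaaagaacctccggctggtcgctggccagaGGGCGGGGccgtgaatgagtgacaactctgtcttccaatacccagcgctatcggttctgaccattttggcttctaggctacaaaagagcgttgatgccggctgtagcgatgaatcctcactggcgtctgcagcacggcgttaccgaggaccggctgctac
Tmcc2: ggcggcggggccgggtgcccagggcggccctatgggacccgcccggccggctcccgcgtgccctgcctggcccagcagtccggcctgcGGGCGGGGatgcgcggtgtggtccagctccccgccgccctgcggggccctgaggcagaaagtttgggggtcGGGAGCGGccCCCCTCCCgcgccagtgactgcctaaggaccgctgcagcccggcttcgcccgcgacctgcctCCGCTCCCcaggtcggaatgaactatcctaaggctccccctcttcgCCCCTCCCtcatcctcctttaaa
Slfn14: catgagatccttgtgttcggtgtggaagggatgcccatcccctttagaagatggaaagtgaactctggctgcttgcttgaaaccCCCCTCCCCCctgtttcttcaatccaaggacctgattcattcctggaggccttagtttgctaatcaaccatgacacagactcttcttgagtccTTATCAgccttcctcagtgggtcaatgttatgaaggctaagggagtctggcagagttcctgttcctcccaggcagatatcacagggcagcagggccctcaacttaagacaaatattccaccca
The *Bpgm* window held 1 KLF match, the *Tmcc2* window 5, and the *Slfn14* window 2 overlapping KLF matches and the only GATA match of the 3 windows. Of 32851 such windows of all genes, 49.5% held a KLF match and 29.8% a GATA match.

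Between the intermediate and the hemoglobin-dominated cells, 716 of 2931 tested genes (24.4%) were 1.5-fold or more higher and 888 (30.3%) lower in the WT, and 332 of 1087 (30.5%) and 384 (35.3%) in the Cko. A gene was tested with 200 UMIs or more over the groups compared, and with 1 library per genotype these folds carry no test. The median log2 ratio over the tested genes was -0.12 in the WT and -0.09 in the Cko. Of the 1078 genes tested in both, 278 were higher in both libraries, 77.7% of those higher in the WT and 84.8% of those higher in the Cko, and 275 were lower in both (83.8% and 72.2%). The split depends on the total. With hemoglobin UMIs in the total the median log2 ratio moved by -1.21 and -1.23, and 110 genes were higher and 2248 lower in the WT and 104 and 768 in the Cko. With ribosomal protein and mitochondrial UMIs also left out of the total, the shifts were -0.34 and -0.32, and 440 were higher and 1313 lower in the WT and 249 and 488 in the Cko. The mean of each cell's own level moved the median by -0.18 and -0.25, with 528 higher and 1043 lower in the WT and 295 and 458 in the Cko. Directions below are therefore within the non-hemoglobin RNA. The genes with the highest ratios over both libraries were *Xpo7*, *Tbcel* (15.3-fold in the WT and 31.2-fold in the Cko), *Tcp11l2* (14.4 and 27.0), *Bpgm*, *Tmcc2*, the interferon-induced *Rsad2* (12.3 and 18.8), the survival gene *Bcl2l1* (10.4 and 17.1), *Slfn14*, *Fam213a* (7.71 and 13.8) and *Fam46c* (7.60 and 10.8). The lowest were *Car1*, carbonic anhydrase of earlier erythroid cells, at 0.110 and 0.0558 of its intermediate level, and *Mcm3*, *Nasp*, *Rfc4*, *Dut*, *Siva1*, *Mcm6*, *Lig1*, *Dtymk* and *Mcm5*.

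Heme synthesis genes were mostly higher. Of 12 tested, 8 were past 1.5-fold higher and 1 lower in the WT (median log2 0.83), and 7 higher and 1 lower in the Cko (0.98). *Alas2*, the erythroid enzyme of the committing step, was at 84.3 UMIs per 10000 against 20.7 in the WT and at 125 against 30.9 in the Cko, or 4.08-fold and 4.03-fold. *Fech*, which inserts the iron, was at 29.5 against 8.77 and at 29.2 against 9.58. *Urod*, an enzyme in the middle of the chain, was 2.05-fold and 2.71-fold higher. The exception was *Tmem14c*, a mitochondrial carrier of porphyrin precursors, at 0.244 and 0.232 of its intermediate level. The summed level of the 13 listed members was 216, 278, 370 and 461 over the 4 steps of hemoglobin in the WT and 249, 345, 430 and 594 in the Cko, so that it was higher at each step in both libraries.

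Among iron handling genes, 4 of 10 were higher in the WT (median log2 0.33) and 5 of 8 higher and 1 (*Pcbp1*) lower in the Cko (0.75). Of all tested genes 24.4% were higher in the WT, and 30.5% higher and 35.3% lower in the Cko. The mitochondrial iron importer *Slc25a37* was at 22.2 against 8.05 UMIs per 10000 in the WT and at 17.0 against 8.17 in the Cko. The ferritin chains went apart. *Ftl1* was at 120 against 59.7 in the WT and at 90.6 against 48.8 in the Cko, whereas *Fth1* was within 1.5-fold, at 161 against 143 in the WT and at 98.9 against 100 in the Cko. The transferrin receptor *Tfrc* was at 4.09 against 3.39 in the WT and at 12.4 against 8.05 in the Cko.

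Red cell membrane genes were higher in 20 of 26 tested in the WT (median log2 0.98) and in 17 of 22 in the Cko (0.89), and none was lower past 1.5-fold. *Slc4a1*, the band 3 anion exchanger, was at 29.4 UMIs per 10000 against 11.6 in the intermediate WT cells (2.53-fold) and at 27.6 against 12.3 in those of the Cko (2.25-fold), and the blood group antigen gene *Rhd* was 2.29-fold and 2.03-fold higher. The summed level reached 372 in WT cells at 70 to 80% hemoglobin and was 176 over 90%, so this group, unlike heme synthesis, was lower in the last step. In the Cko it was 337, 320, 344 and 230.

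The terminal maturation list, which holds genes of autophagy, ubiquitin transfer and organelle loss, had the highest share of higher members of any list in both libraries, after the 4 markers. Of 37 tested in the WT, 34 were higher and none lower (median log2 1.72), and of 31 in the Cko 28 were higher and none lower (1.95). The ubiquitin gene *Ubb* was at 99.2 UMIs per 10000 against 28.2 in the WT and at 157 against 34.1 in the Cko. The ubiquitin ligase gene *Mkrn1* was 6.20-fold and 9.63-fold higher and the ubiquitin conjugating gene *Ube2l6* 5.20-fold and 6.11-fold. *Bnip3l*, the mitophagy receptor of reticulocytes, was at 24.3 against 5.54 and at 31.0 against 4.80. The summed level was 377, 593, 1096 and 1698 over the 4 steps in the WT and 407, 779, 1150 and 1646 in the Cko. With hemoglobin UMIs in the total its median was 0.51 in the WT and 0.72 in the Cko, whereas the medians of the heme, iron, membrane and transcription factor lists were below 0 on that scale.

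Redox genes were mixed, with 5 of 16 higher and 3 lower in the WT and 5 of 11 higher and 2 lower in the Cko. For this list and the next 2, the shares of all tested genes were 24.4% higher and 30.3% lower in the WT, and 30.5 and 35.3% in the Cko. *Gpx1*, glutathione peroxidase, was at 166 against 58.7 UMIs per 10000 in the WT and at 236 against 68.9 in the Cko, *Prdx2* was 1.70-fold and 1.69-fold higher and catalase (*Cat*) 7.10-fold and 11.1-fold. Erythroid transcription factors were higher in 6 of 13 in the WT and 4 of 10 in the Cko, with none lower. *Nfe2* was 2.88-fold and 3.39-fold higher, whereas *Klf1* (1.43-fold and 1.25-fold) and *Gata1* (1.16-fold and 1.11-fold) were within the limit. Their summed level was 115, 101, 57.4 and 21.3 over the steps in the WT and 94.5, 69.9, 61.4 and 20.7 in the Cko. Early erythroid and progenitor genes were lower in 8 of 13 and higher in 1 in the WT, and lower in 6 of 10 and higher in 3 in the Cko. *Car2*, the abundant carbonic anhydrase of red cells, was the higher one in the WT at 2.08-fold, and with the metallothionein genes *Mt1* and *Mt2* one of those higher in the Cko.

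Cell cycle genes split by phase. Of the S phase genes, 17 of 19 were lower and none higher in the WT (median log2 -1.72), and 13 of 13 lower in the Cko (-3.06). *Pcna*, the replication clamp, was at 1.88 UMIs per 10000 against 6.05 in the WT and at 0.573 against 5.80 in the Cko. The G2 and mitosis genes were higher in 17 of 20 in the WT (median log2 0.88) and in 4 of 20 in the Cko (0.33), with none lower. These counts depended on the scale. On the mean of each cell's own level 6 were higher and 0 lower in the WT and 0 higher and 6 lower in the Cko (median log2 0.47 and -0.44). Without ribosomal protein and mitochondrial UMIs in the total they were 9 and 0 in the WT and 0 and 3 in the Cko, and with hemoglobin UMIs in the total 0 and 3 in the WT and 0 and 18 in the Cko. *Ube2c*, the ubiquitin conjugating enzyme of the anaphase-promoting complex, was at 89.5, 107, 32.7 and 49.7 over the steps in the WT and at 88.3, 26.3, 10.5 and 12.4 in the Cko. The mitotic sum was 383 and 379 in the WT at 60 to 70 and 70 to 80% hemoglobin and 68.3 at 80 to 90%. In the Cko the drop came a step earlier, with 325, 71.2 and 23.5. In the intermediate cells the sum was 164 in the WT and 154 in the Cko. The steps before the drop thus lay above the intermediate cells, and whether their cells are late erythroblasts was not tested. After thinning, UMIs of at least 2 genes of this list were seen in 97.1% of the WT cells at 60 to 70% (95.4 to 98.3%) and in 68.4% at 80 to 90% (63.2 to 73.3%), against 79.7% (68.8 to 88.2%) and 23.3% (14.2 to 34.7%) in the Cko and 69.6% of WT and 55.6% of Cko B-lineage cells. B-lineage cells also divide, so their share is no background for these genes.

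**Figure D3:**
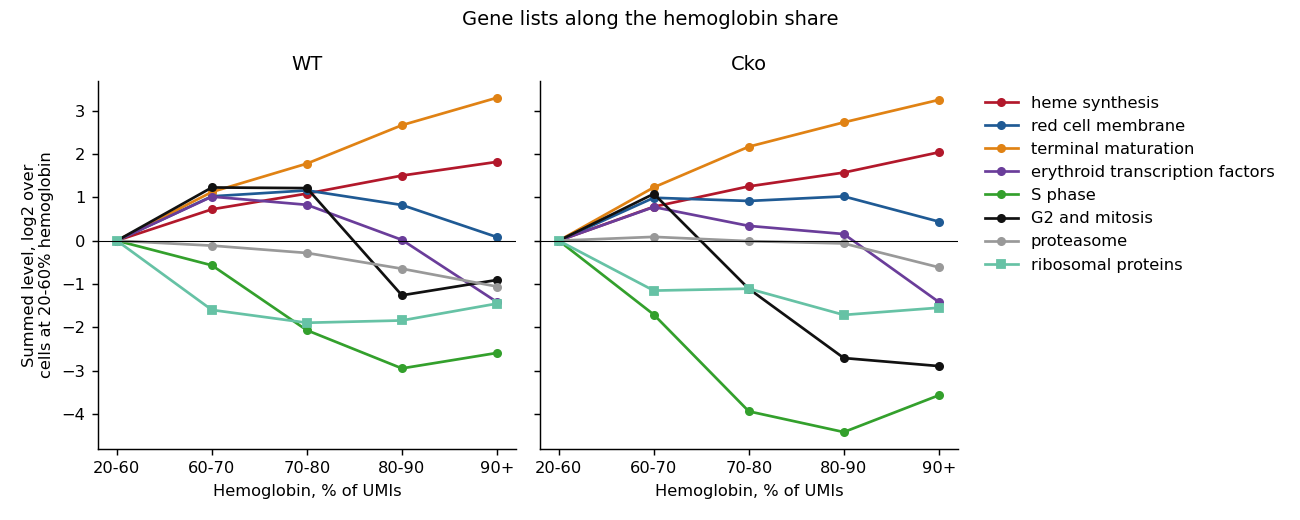
Summed level of 8 gene groups (log2 over the level in cells at 20 to 60% hemoglobin, vertical axis) against the hemoglobin share (% of UMIs) in WT and Cko. Terminal maturation and heme synthesis climb at each step, S phase and ribosomal protein genes lie below 0, and the G2 and mitosis line drops after 70 to 80% in the WT and after 60 to 70% in the Cko.

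Ribosomal protein genes were lower in all 81 tested in the WT (median log2 -1.78) and in 80 of 81 in the Cko (-1.26), and were lower in 80 or 81 on each scale tried. They took up 8.04% of the non-hemoglobin UMIs in the WT and 12.5% in the Cko, against 26.3 and 29.3% in the intermediate cells. Mitochondrially encoded genes took up 1.81 and 1.31%, against 2.34 and 1.63%. Of these genes 5 of 11 were past 1.5-fold lower in the WT and 5 of 8 in the Cko, against 30.3 and 35.3% of all tested genes.

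*Malat1*, a nuclear long noncoding RNA (chr19:5795690-5802672, minus strand), had the highest level of any non-hemoglobin gene, at 353 UMIs per 10000 in the WT and 361 in the Cko. It is retained in the nucleus, so a cell without it is described here as *Malat1*-poor, with fewer than 50 *Malat1* UMIs per 10000, a limit set after the values were seen. There were 122 such cells in the WT (8.56% of the hemoglobin-dominated cells) and 29 in the Cko (12.2%), and the Cko share was 1.42-fold the WT share (0.916 to 2.15). They lay at the top of the hemoglobin range. In the WT 3 of 592 cells at 60 to 70%, 2 of 408 at 70 to 80%, 5 of 243 at 80 to 85%, 39 of 108 at 85 to 90% and 73 of 75 over 90% were *Malat1*-poor. In the Cko the counts were 0 of 74, 0 of 82, 4 of 51, 17 of 23 and 8 of 8. Few cells lay near the limit, with 34 WT and 2 Cko cells at 50 to 100, and 105 WT and 28 Cko cells had at most 1 *Malat1* UMI. In the intermediate cells 86 WT (10.2%) and 30 Cko cells (17.6%) were also under the limit, and none of them had 0 or 1 *Malat1* UMI. The intermediate cells were deeper, with medians of 3851 and 4956.5 non-hemoglobin UMIs, against 582.5 and 812 in the *Malat1*-poor cells. A count of 0 or 1 is thus a stricter level there, and it cannot show whether the low cells of the 2 groups differ.

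**Figure D4:**
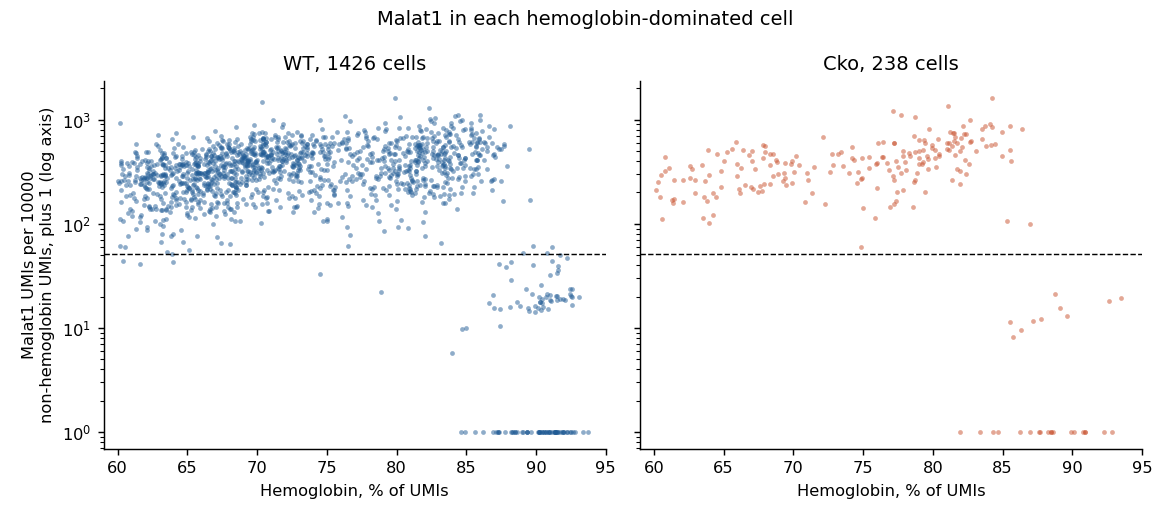
*Malat1* level of each hemoglobin-dominated cell (UMIs per 10000 non-hemoglobin UMIs plus 1, log axis) against its hemoglobin share (%), with a dashed line at the limit of 50. In the WT 73 of 75 cells over 90% hemoglobin lie under the line, and in the Cko 8 of 8.

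The *Malat1*-poor cells were compared with the *Malat1*-bearing cells of the same library at 80% hemoglobin or more (117 against 309 cells in the WT and 29 against 53 in the Cko), among genes with 100 UMIs or more. The poor cells were not the smaller ones by total UMIs, with medians of 6170 against 4941 in the WT and 7525 against 6623 in the Cko. Their non-hemoglobin UMIs were fewer, with medians of 575 against 811 and 812 against 1103. Their median hemoglobin share was 90.4% against 83.2% in the WT and 88.5% against 82.1% in the Cko. The folds given for these groups thus cannot tell low *Malat1* apart from a higher hemoglobin share. Of 484 genes tested in the WT, 80 (16.5%) were 1.5-fold or more higher and 166 (34.3%) lower in the poor cells. In the Cko 59 of 158 (37.3%) were higher and 31 (19.6%) lower.

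*Bpgm* was at 225 UMIs per 10000 in the poor and 88.7 in the bearing cells of the WT (2.54-fold, 2.38 to 2.71) and at 149 and 56.3 in the Cko (2.64-fold, 2.28 to 3.07). *Xpo7* went the other way, at 4.87 against 39.7 in the WT and 1.97 against 29.1 in the Cko. *Slfn14* had 11 UMIs in the poor and 347 in the bearing cells of the WT, and 0 and 71 in the Cko. The splicing factor gene *Rsrp1* was at 0.0729 and 0.0276 of its level in bearing cells and the kinase gene *Pim1* at 0.143 and 0.0750. *Ubb* was 1.87-fold and 1.93-fold higher in the poor cells and *Alas2* 1.67-fold and 1.52-fold. Of the ribosomal protein genes, 23 of 73 were higher in the WT and 31 of 35 in the Cko, with none lower. All 5 tested erythroid transcription factors were lower in the WT, and 1 of 2 in the Cko.

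RNA of other lineages was also a larger part of the *Malat1*-poor cells. The neutrophil markers summed to 191 UMIs per 10000 in poor and 114 in bearing WT cells, and to 197 and 147 in the Cko. Markers of other cell types reached 1% of the non-hemoglobin UMIs in 112 of the 117 poor and 212 of the 309 bearing WT cells, and in 28 of 29 and 47 of 53 Cko cells. Without such cells, the *Malat1*-poor share of the hemoglobin-dominated cells was 1.04% in the WT and 0.877% in the Cko, so most *Malat1*-poor cells also carried this RNA. Its part in the comparison was not tested.

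Between Cko and WT hemoglobin-dominated cells, 231 of 1641 tested genes (14.1%) were 1.5-fold or more higher and 427 (26.0%) lower in the Cko, with a median log2 ratio of -0.11. In the heme list 1 of 12 was higher and 1 lower, in the membrane list 0 of 25 higher and 3 lower, in the terminal maturation list 5 of 36 higher and 4 lower, and among the transcription factors 0 of 12 higher and 1 lower. The other erythroid lists had larger shares past the fold, with 2 of 9 iron handling genes higher and 2 lower, 1 of 13 redox genes higher and 4 lower, and 1 of 8 early erythroid and progenitor genes higher and 4 lower. *Slc4a1* was at 29.4 UMIs per 10000 in the WT and 27.6 in the Cko (a ratio with an interval of 0.883 to 0.9997) and *Fech* at 29.5 and 29.2 (0.989, 0.931 to 1.05). *Alas2* was 1.48-fold (1.43 to 1.52) higher in the Cko over all cells but 1.11-fold (1.05 to 1.17) among cells at 80% hemoglobin or more. The markers also depended on the step. *Bpgm* was at 1.49 (1.35 to 1.64) of the WT level at 60 to 80% hemoglobin and at 0.705 (0.650 to 0.764) at 80% or more, and *Xpo7* at 1.94 (1.67 to 2.24) and 0.657 (0.558 to 0.769).

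Several genes of the integrated stress response, through which phosphorylation of eIF2 alpha raises the translation of ATF4 and its targets, were higher in the Cko. The list was drawn up after the values were seen, so its count cannot show that the response as a whole was higher. Of its 6 tested members, 5 were past 1.5-fold higher and none lower (median log2 1.43). Of all tested genes 14.1% were higher and 26.0% lower. The 6 members listed in both summed to 30.02 UMIs per 10000 in the WT and 72.4 in the Cko. *Ddit3*, which encodes CHOP, was at 0.978 (210 UMIs) in the WT and 11.01 (480 UMIs) in the Cko, an 11.3-fold difference (9.56 to 13.3). Along the 4 steps of hemoglobin it was at 1.35, 0.697, 0.174 and 0 in the WT and at 7.47, 12.99, 17.5 and 6.21 in the Cko, so the libraries moved apart from 60 to 90%. A *Ddit3* UMI was seen after thinning in 3.52% of the WT cells (2.61 to 4.62%, and 12.8% without thinning) and 39.4% of the Cko cells (33.1 to 46.0%, and 77.3%), against 0.606 and 1.35% of the B-lineage cells. In the intermediate cells *Ddit3* was 6.03-fold (5.14 to 7.08) higher in the Cko, and in the cells with low hemoglobin it was at 0.590 (0.520 to 0.669) of the WT level. *Ppp1r15a*, which encodes the GADD34 subunit that reverses the phosphorylation, was at 18.3 and 39.7 (2.16-fold, 2.04 to 2.29). *Atf4* was at 2.98 and 7.84 (2.63-fold, 2.30 to 3.01), and *Asns*, asparagine synthetase, was 2.77-fold higher (2.30 to 3.33) over all cells but 0.993-fold at 80% hemoglobin or more. *Cebpb* was 12.9-fold higher. The heme-regulated kinase gene *Eif2ak1*, whose product phosphorylates eIF2 alpha in erythroid cells, was at 5.96 and 6.22 (1.04-fold, 0.911 to 1.19). The ATF4 targets *Atf5*, *Trib3* and *Sesn2* were listed only in the Cko, at 7.16, 4.93 and 0.780.

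The endoplasmic reticulum chaperone list, to which ATF6 targets belong, also holds *Ddit3* and *Atf4*, which are not chaperone genes. Of 7 tested, the 2 higher were *Ddit3* and *Atf4*, also of the list above. None of the other tested members was higher. Of these, 2 were lower (*Hsp90b1* at 0.559 and *Dnajb11* at 0.495 of the WT level) and 3 were within 1.5-fold. *Hspa5*, which encodes BiP, was at 4.06 and 4.08 UMIs per 10000 (interval of the ratio 0.850 to 1.18) and *Calr* at 3.16 and 3.07 (0.972, 0.802 to 1.17). *Mbtps1* itself (chr8:119508156-119558735, minus strand) had 106 WT and 24 Cko UMIs, or levels of 0.493 and 0.550 (1.12-fold, 0.685 to 1.75). A 3′ count lies outside the floxed exon and does not check its deletion. Of 21 cholesterol synthesis genes, the SREBP targets among them, 5 were listed in both libraries and none of those reached 200 UMIs. These 5 summed to 1.15 in the WT and 0.895 in the Cko.

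*Tfrc* was 3.04-fold (2.73 to 3.39) higher in the Cko (4.09 against 12.4 UMIs per 10000), and 2.38-fold (2.17 to 2.60) higher in the intermediate cells. *Fth1* was at 161 and 98.9, a ratio of 0.614 (0.594 to 0.633), and *Ftl1* at 120 and 90.6, a ratio of 0.756 (0.731 to 0.782). *Pim1*, a kinase gene induced by STAT5, was 3.20-fold (2.94 to 3.49) higher.

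Among genes of antigen presentation and interferon response, 4 of 7 were higher and 1 lower, against 14.1 and 26.0% of all tested genes. This list was also drawn up after the values were seen, so the count only describes the genes in it. *B2m*, the common light chain of MHC class I, was at 5.41 UMIs per 10000 in the WT and 21.3 in the Cko (3.93-fold, 3.599 to 4.29), and the heavy chain gene *H2-D1* was 5.92-fold (5.11 to 6.87) higher. *B2m* was also higher in the Cko in the intermediate cells (2.78-fold) and in the cells with low hemoglobin (1.69-fold), where it stood at 10.9 and 18.4. The interferon-induced GTPase gene *Igtp* was 9.32-fold (6.98 to 12.5) higher. *Rsad2* was at 23.9 and 14.7, a ratio of 0.615 (0.566 to 0.668), and *Isg15* at 19.9 and 19.3 (0.969, 0.899 to 1.04), so the interferon genes did not go 1 way.

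All 12 tested S phase genes were lower in the Cko (median log2 -1.66), and their sum was 39.3 UMIs per 10000 in the WT and 13.4 in the Cko. *Rrm2*, a subunit of ribonucleotide reductase, was at 13.3 and 4.56 (ratio 0.342, 0.295 to 0.395), *Slbp*, for histone mRNA processing, at a ratio of 0.319 (0.254 to 0.396) and *Pcna* at 1.88 and 0.573 (0.306, 0.195 to 0.458). In the intermediate cells the same ratios were 0.929, 0.818 and 0.958. Of the G2 and mitosis genes 14 of 20 were lower and none higher (median log2 -0.89), with sums of 334 and 188. *Top2a* was at 14.1 and 6.31 and *Cdk1* at 14.5 and 6.10. At matched hemoglobin the S phase sums were 57.2 against 22.6 at 60 to 70% and 20.3 against 4.81 at 70 to 80%, lower in the Cko in each step. *Hemgn*, an erythroid nuclear factor, was at 38.0 and 16.0 (0.421, 0.389 to 0.455), and the cell cycle inhibitor gene *Cdkn2d* at 27.6 and 11.9 (0.430, 0.393 to 0.471).

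Ribosomal protein genes were higher in 46 of 81 tested and lower in none (median log2 0.61), each of the other scales giving 36 to 51 higher. Of the proteasome genes 5 of 30 were higher, a share near the 14.1% of all tested genes, and none lower. Mitochondrially encoded genes were lower in 7 of 10, against 26.0% of all tested genes. The 10 highest ratios were those of the linker histone gene *H1f0* (0.400 and 7.06 UMIs per 10000, 17.6-fold, 13.9 to 22.7), the metallothionein *Mt1* (14.2-fold), *Cebpb*, *Ddit3*, *Igtp*, *Dstn* (7.14-fold), *Apol11b* (3.12 and 22.1, 7.08-fold), *Eif3c* (5.95-fold), *H2-D1* and *Stfa1* (5.31-fold). *Stfa1*, a stefin gene of neutrophils, was at 2.07 and 8.55 in the cells with low hemoglobin, a 4.13-fold difference, and its part in the ratio in hemoglobin-dominated cells was not tested. *Apol11b* was at 1.94, 3.91, 5.94 and 5.19 over the steps of hemoglobin in the WT and at 10.5, 31.5, 36.6 and 39.3 in the Cko, and it was near 0 in cells with low hemoglobin (0.0234 and 0.0247). The 10 lowest were *Apobec3*, a cytidine deaminase gene, with 345 UMIs in the WT and 0 in the Cko, which is at least 23.3-fold lower with a floor of 3 UMIs over the group, *Ppdpf* (0.0921), *Siva1* (0.164), the maintenance methyltransferase gene *Dnmt1* (0.186), *D030056L22Rik* (0.186), the DNA ligase gene *Lig1* (0.206), *Hist2h2bb* (0.207), *Set* (0.210), *Mxd3* (0.211) and *Ssrp1* (0.213). *Apobec3* had 3752 UMIs in the WT and 612 in the Cko cells with low hemoglobin.

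Of the neutrophil markers, 1 of 12 was past the fold (*Retnlg*, 1.68-fold higher in the Cko, 1.49 to 1.90) and none lower, with a median log2 ratio of 0.32, against 14.1% of all tested genes higher. Without the cells in which markers of other cell types reached 1% of the non-hemoglobin UMIs, 184 of 1409 tested genes were higher and 294 lower in the Cko. With the 3 ranges of hemoglobin from 60 to 70, 70 to 80 and 80% or more given equal weight, an alternative chosen after the data were seen, 226 were higher and 455 lower.

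**Figure D5:**
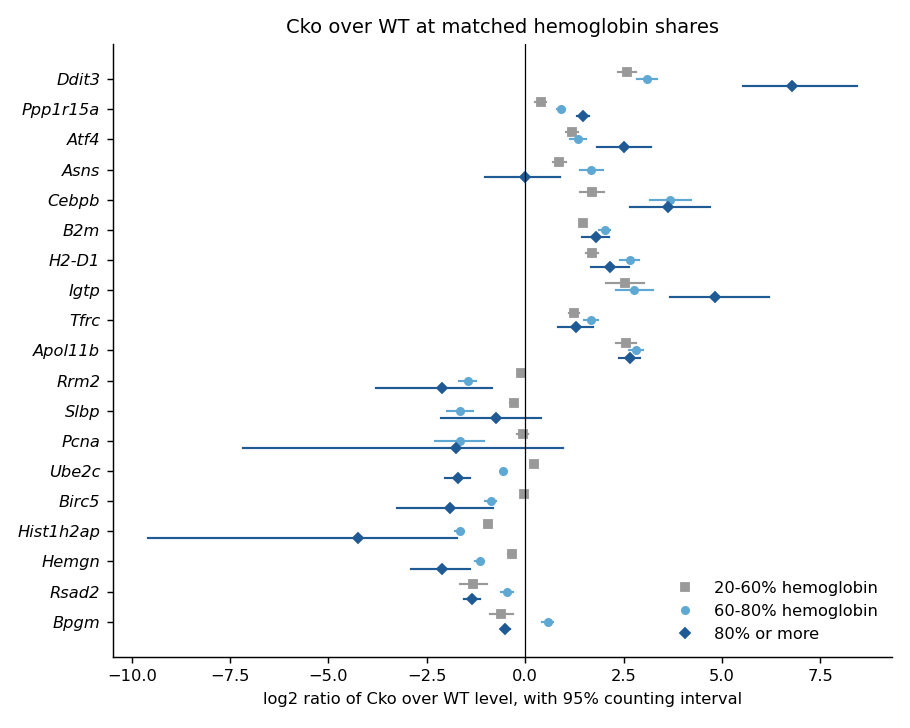
Log2 ratio of the Cko to the WT level for named genes (horizontal axis, with 95% counting intervals) in cells at 20 to 60%, 60 to 80% and 80% or more hemoglobin. *Ddit3*, *B2m* and *Apol11b* lie above 0 in each range, while *Rrm2* and *Pcna* lie near 0 at 20 to 60% and below 0 at 60 to 80%, and *Bpgm* lies on opposite sides at 60 to 80% and at 80% or more.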

How the data were processed

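BMCs of 1 WT and 1 Cko mouse were measured on the 10x Chromium 3′ platform. The authors aligned and counted reads with Cell Ranger on GRCm38, per the submitters' processing notes, and deposited raw UMI counts per gene and barcode. The Cell Ranger version is not given in the sources used here.

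Barcodes with 200 genes or more were kept, and cells with hemoglobin at 60% or more of the UMIs were selected. Levels are UMIs summed over cells per 10000 non-hemoglobin UMIs. Ratios were computed for genes with 200 UMIs or more over the compared groups (100 for *Malat1*), and 1.5-fold was the limit. With 1 library per genotype no test was made. Share intervals are exact binomial, ratio intervals exact conditional and level intervals exact Poisson, each at 95%, and the procedure was tested on simulated data. The upper limit of a gene without a UMI was 3 UMIs over the group. Where cells with a UMI were counted, all cells were first drawn down at random to 500 non-hemoglobin UMIs. Doublets were called by Scrublet at an expected rate of 5% and kept. B-lineage cells held UMIs of 3 or more B cell markers and under 20% hemoglobin. Python 3.11.15, numpy 2.4.6, pandas 2.3.3, SciPy 1.17.1, scanpy 1.11.5 and matplotlib 3.10.9 were used.

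The members, gene lists and alternatives were chosen with earlier results of these data known. The *Malat1* limit and the integrated stress response, MHC class I and interferon, and histone lists were chosen after the values were seen. The genes named were the 4 markers, *Mbtps1*, every globin gene, up to 6 members of each list with the most UMIs in the selected cells, the 10 non-hemoglobin genes of highest level, and the 10 highest and 10 lowest in the Cko/WT comparison and in that of hemoglobin-dominated with intermediate cells, by the geometric mean over both libraries. Other genes, such as single exceptions in a list, *Pim1*, *Tfrc* and *Cdkn2d*, were named after their values were seen. The alternatives were hemoglobin limits of 50 and 70%, a minimum of 500 genes, other UMI minimums, other totals, per-cell means, removal of doublets and of cells with other-lineage RNA, intermediate cells from 40%, and cells of 80% hemoglobin or more. Some genes that this rule selects are not reported here.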

Additional observations from a re-analysis of the deposited data

Results flagged for a closer look

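For 7 of the 1078 genes measured in both libraries, the level within the non-hemoglobin RNA changed opposite ways in the WT and the Cko past 1.5-fold. The change was that from intermediate to hemoglobin-dominated cells. With 1 library per genotype the difference was not tested. *Dstn*, which encodes the actin-severing protein destrin, had a log2 ratio of -0.73 in the WT and 2.28 in the Cko. *Cebpb*, a transcription factor gene, was at -0.88 and 1.12, and *Eprs*, the glutamyl-prolyl-tRNA synthetase gene, at -1.12 and 0.83. The peroxiredoxin gene *Prdx6* was at -0.78 and 0.66, and the selenoprotein gene *Sepw1* at -0.73 and 0.65. The opposite order was seen for the mitochondrial folate enzyme gene *Mthfd2*, at 0.62 and -0.84, and for the histone-binding gene *Rbbp4*, at 0.80 and -0.65. *Mthfd2* stood at 1.24 UMIs per 10000 non-hemoglobin UMIs in the intermediate and 1.89 in the hemoglobin-dominated WT cells, and at 4.07 and 2.27 in the Cko. *Rbbp4* stood at 3.12 and 5.45 in the WT and at 3.28 and 2.09 in the Cko. These opposite directions depend on the total. With hemoglobin UMIs in the total every log2 ratio moves by -1.21 in the WT and by -1.23 in the Cko. On that scale only *Dstn* keeps opposite signs, and the others are lower in both libraries.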

How the results depend on the processing

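Of 113 alternative values for shares, medians and counts, 64 stayed within counting error or 1.5 times of the reported value and 49 moved, and of 667 for single genes 423 stayed and 244 moved. None of these past 1.5-fold changed sign. They cover the markers and the genes of highest and lowest ratio, so a change was unlikely from the start. Other genes past 1.5-fold did change sign. With hemoglobin UMIs in the total, each log2 ratio of hemoglobin-dominated over intermediate cells moved by -1.21 (WT) and -1.23 (Cko). *Prdx2*, higher without them, is then lower in both libraries. Smaller ratios also changed sign, such as *Xpo7* and *Bpgm* between Cko and WT (0.657 and 0.705 at 80% hemoglobin or more). So did list medians on other scales. With a hemoglobin limit of 50% the cells were 26.7% of the WT and 8.30% of the Cko cells, with median hemoglobin of 69.9 and 72.8% and an alpha share of 39.3 and 37.6%. A limit of 70% gave 13.3 and 4.48% (ratio 0.337), medians of 80.2 and 80.05%, alpha shares of 40.7 and 38.3%, and 207 genes lower in the Cko. A minimum of 500 genes gave 16.2 and 4.44%, medians of 68.3 and 71.3% and alpha shares of 38.4 and 37.9%. Over low-hemoglobin cells plus the cells themselves the WT share was 26.3%. Without cells carrying other-lineage RNA the medians were 69.1 and 68.7%, the alpha shares 38.5 and 37.4% and, chosen after the data were seen, the *Malat1*-poor shares 1.04 and 0.877%. *Malat1* limits of 100 and 20, also chosen then, gave 10.9 and 6.87% in the WT. For Cko against WT, a minimum of 100 UMIs gave 668 lower, a minimum of 500 gave 130 higher and 195 lower, and cells at 80% hemoglobin or more gave 43 and 62. For hemoglobin-dominated against intermediate cells, a minimum of 100 UMIs gave 1410 lower in the WT and 508 higher and 638 lower in the Cko. A minimum of 500 UMIs gave 462 lower in the WT and 144 higher and 183 lower in the Cko. Intermediate cells from 40% hemoglobin gave 435 higher and 487 lower in the WT and 209 and 207 in the Cko. A total with hemoglobin gave 110 and 2248, and 104 and 768. Without ribosomal protein and mitochondrial UMIs 440 were higher in the WT. Fewer genes or cells enter the counts with higher minimums or narrower ranges, and the cause of the other shifts was not tested. No paired analysis was possible because each genotype has 1 library and no replicate numbers, and no replicate could be left out. Depth limits genes under 200 UMIs and the 8 Cko cells over 90% hemoglobin.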

Other observations

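Some interferon-induced genes were higher in hemoglobin-dominated than in intermediate cells of both libraries. *Rsad2*, which encodes the antiviral enzyme viperin, was at 9.06, 30.7, 70.3 and 22.7 UMIs per 10000 non-hemoglobin UMIs over the 4 steps of hemoglobin in the WT and at 5.40, 23.0, 26.1 and 12.4 in the Cko. *Isg15*, a ubiquitin-like modifier, was 7.28-fold higher in hemoglobin-dominated than in intermediate cells in the WT and 4.67-fold in the Cko. *Ifi27* was 2.28-fold and 2.29-fold higher.

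Histone genes, a list drawn up after the values were seen, differed among themselves. The replication-dependent *Hist1h2ap* was at 45.4 UMIs per 10000 in the WT and 13.4 in the Cko (0.296, 0.272 to 0.322), and the replacement histone genes *H3f3a* and *H2afz* were at 0.630 and 0.655 of the WT level. *Hist1h2bc* was 1.65-fold (1.49 to 1.82) higher in the Cko. *H1f0* was 20.2-fold higher at 60 to 80% hemoglobin and 2.39-fold (0.615 to 8.28) at 80% or more.

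The proteasome gene *Psmb6* was 1.69-fold (1.40 to 2.02) higher in the Cko than in the WT. Glycolysis genes were lower in 6 of 10 and higher in 1 in the WT, against 30.3% of all tested genes lower. The 1 higher was the marker *Bpgm*, which this list includes. On the mean of each cell's own level 1 was lower, and *Bpgm* was again the 1 higher. In the Cko only 2 were tested, *Bpgm*, which was higher, and *Gapdh*, which was lower. *Gapdh* was at 1.06 against 4.63 in the intermediate cells of the WT and at 1.01 against 4.68 in the Cko. *Ccnd3*, which encodes cyclin D3, was at 0.282 of its intermediate level in both libraries, whereas the inhibitor gene *Cdkn2d* was 3.67-fold higher in the WT and 1.88-fold in the Cko.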
